A study of Mus musculus with 21 samples.

Results

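RNA levels were compared between 2 mouse cell lines at a single question: how much more, or less, each gene changed when epiblast-like cells were turned into germ cell-like cells in a line lacking both Otx2 and Blimp1 than in a line lacking Otx2 alone. For each gene the change from EpiLC to PGCLC in the Otx2-null line was subtracted from the same change in the Otx2/Blimp1-null line, and this difference of 2 changes is called the interaction. It used 12 of the 21 one-colour bead arrays of the series, in 4 groups of 3. The Otx2-null line (Otx2-/-, with the alleles Otx2GFP/lacZ) and the Otx2/Blimp1-null line (Otx2GFP/lacZ with Blimp1-/-) both lack Otx2, so that loss is shared by all 12 samples. EpiLC, epiblast-like cells, were harvested after 2 days with activin A and FGF2 in medium with 1% serum replacement. PGCLC, primordial germ cell-like cells, were sorted on day 6 for SSEA1 and CD61 from aggregates kept in medium with 15% serum replacement, BMP4, BMP8a, LIF, SCF and EGF. Only 1 line of each genotype was described, and effects of genotype and of line cannot be told apart. A further 6 arrays, EpiLC and PGCLC of the line E14Tg2a, are called WT here. Their contrast was used only to sort genes by their change at induction in that line.

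Mouse germ cells are set aside from the epiblast when BMP signals induce Blimp1 (encoded by Prdm1), Prdm14 and Tfap2c, which together repress somatic genes, restore pluripotency genes and start germ cell genes. Blimp1 is a zinc finger protein that represses transcription, and Tfap2c (AP-2 gamma) is an activator and repressor that acts with it. Otx2, a homeodomain protein of the epiblast, restricts entry into this lineage, and cells without it enter the lineage more readily. The comparison asks which part of the response of Otx2-null cells differs when Blimp1 is missing too.

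Of 45281 probes per array, those kept named 11649 genes. Between 14088 and 14430 probes were detected on Otx2-null EpiLC arrays and between 17527 and 18085 on Otx2-null PGCLC arrays, against 14696 to 15100 and 15961 to 16507 in the Otx2/Blimp1-null line. Correlations between replicates lay between 0.983 and 0.992. The labels number replicates without saying whether each was its own culture, and p-values therefore rest on the spread among arrays, which may be technical, and the number of arrays, 3 per group, limits the precision. Values without another unit are on the log2 scale, either a signal on an array or a difference of signals. Values after ± are standard errors of a difference, with n = 3 arrays per group, and adjusted p-values come from limma's moderated test with Benjamini-Hochberg adjustment over all genes. The median standard error of the interaction was 0.25. Because RNA came from whole cell preparations, fewer cells of a type and less RNA per cell cannot be told apart.

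The targeted genes could not verify the genotypes. The Otx2 probe was detected on all 12 arrays, with signals of 11.40, 11.43 and 11.25 in Otx2-null EpiLC and 9.37, 9.75 and 9.76 in Otx2-null PGCLC. The corresponding signals were 11.52, 11.55 and 11.39, then 10.50, 10.45 and 10.22, in the Otx2/Blimp1-null line. Otx2 signal fell at induction in both lines and ended higher in Otx2/Blimp1-null PGCLC, with no overlap between the 2 sets of day-6 arrays (interaction 0.64 ± 0.22, adjusted p = 0.0176, and 0.51 without Otx2-null PGCLC replicate 1, which did not pass). Whether the probe lies in the deleted part is not known here. Both Prdm1 probes were below detection on all 12 arrays, as were the probes for Myc and Dnmt3a, so none of these 3 genes was tested. The genes for the sorted antigens, Itgb3 (CD61) and Fut4 (an enzyme that can make SSEA1), lay near the floor, with group means of 4.70 to 4.98 and 4.80 to 4.98.

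Induction changed fewer genes, and changed them less, in the Otx2/Blimp1-null line. In Otx2-null cells 7620 genes changed, which is 65.4% of those tested, and in Otx2/Blimp1-null cells 5038 changed, or 43.2%. The median size of the change, whatever its direction, was 0.69 in the first line and 0.37 in the second. Across genes the 2 sets of changes, which share no array, had a Pearson correlation of 0.59, given as a description since genes are not independent replicates. The interaction passed the test for 5686 genes (48.8%), of which 2340 (20.1%) were higher and 3346 (28.7%) lower in the Otx2/Blimp1-null line. At least 2-fold interactions were found for 1468 of the higher genes and 2031 of the lower. The median interaction over all genes was -0.13, and it was 0.02 when arrays were scaled without the quantile step, so values of this size are within what the scaling moves. Without Otx2-null PGCLC replicate 2, an array whose deposited intensities had to be put back in probe order, 5375 genes passed.

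**Figure D1:**
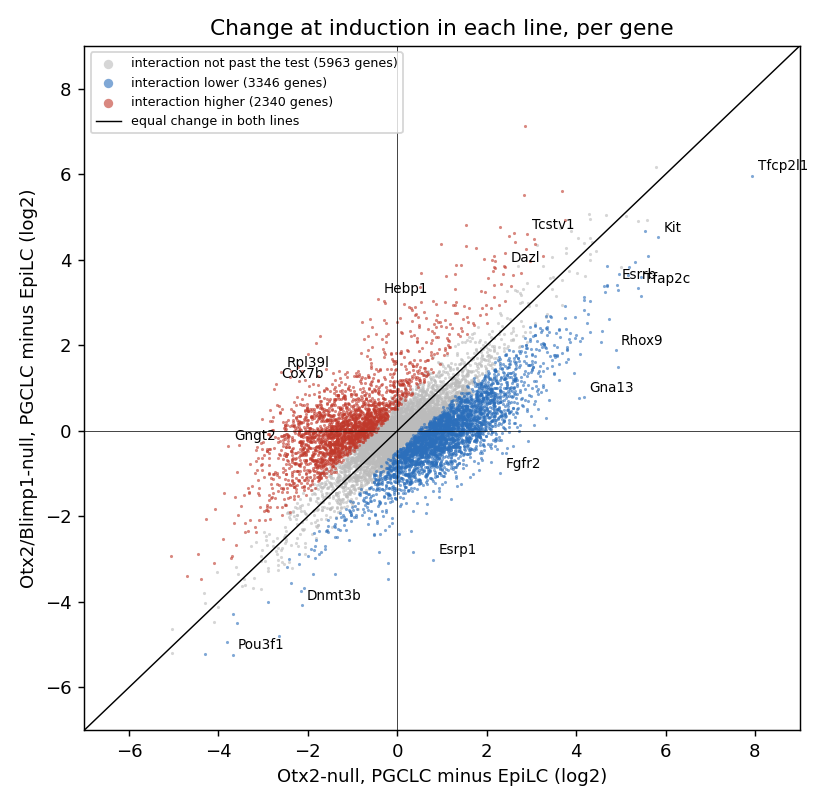
Each point is a gene, with its change at induction (PGCLC minus EpiLC, log2) in the Otx2-null line on the horizontal axis and in the Otx2/Blimp1-null line on the vertical axis, over 3 arrays per group. The 2340 genes with a higher interaction lie above the line of equal change and the 3346 with a lower interaction lie below it.

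A change in one line was often not found in the other. Of the 4173 genes that rose at induction in Otx2-null cells (35.8% of those tested), 1708 (40.9%) also rose in Otx2/Blimp1-null cells, 2052 (49.2%) did not pass the test there and 413 (9.9%) fell. Of the 3447 genes that fell in Otx2-null cells (29.6%), 1453 (42.2%) also fell, 1703 (49.4%) did not pass the test and 291 (8.44%) rose. In the other direction, 384 genes rose and 789 fell in the Otx2/Blimp1-null line among the 4029 that did not pass the test in Otx2-null cells. Over all genes, 20.5% rose and 22.8% fell in the Otx2/Blimp1-null line. Missing the threshold in one line does not show that the lines differ, and the counts of the interaction above are the test of that.

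Most genes with an interaction differed between the lines at day 6. Among genes with a higher interaction, 84.3% were also higher in Otx2/Blimp1-null than in Otx2-null PGCLC, and 25.9% were lower in Otx2/Blimp1-null EpiLC. Among genes with a lower interaction, 82.9% were lower at day 6 and 30.5% were higher in EpiLC. The median difference between lines for the lower genes was -0.79 in PGCLC and 0.37 in EpiLC. Over all genes, 5623 differed between lines in PGCLC (48.3%, with 20.0% higher and 28.3% lower in the Otx2/Blimp1-null line) and 1863 in EpiLC (16.0%, with 9.79% higher and 6.21% lower). The EpiLC count rested on few arrays, and it was 603 without Otx2/Blimp1-null EpiLC replicate 1 and 1169 without Otx2-null EpiLC replicate 3. These shares describe genes picked by the same 4 group means and are no separate test.

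Genes sorted by their behaviour in WT cells, on arrays not used in the interaction, split to opposite sides. WT induction changed 62.8% of genes, with 35.4% rising and 27.4% falling. The 2328 genes that rose at least 2-fold in WT induction had a median interaction of -0.995, and 67.7% of them were called lower and 3.99% higher. The 1692 genes that fell at least 2-fold in WT had a median interaction of 1.04, with 67.1% called higher and 4.79% lower. For the WT-rising genes the median change in WT was 1.55, in Otx2-null cells 1.52 and in Otx2/Blimp1-null cells 0.47. For the WT-falling genes it was -1.55, -1.52 and -0.44. The remaining 7629 genes had a median interaction of -0.08, with 14.6% called higher and 22.1% lower. So the Otx2-null line moved these genes by about as much as WT did, at the median, and the Otx2/Blimp1-null line moved them by less in both directions.

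**Figure D2:**
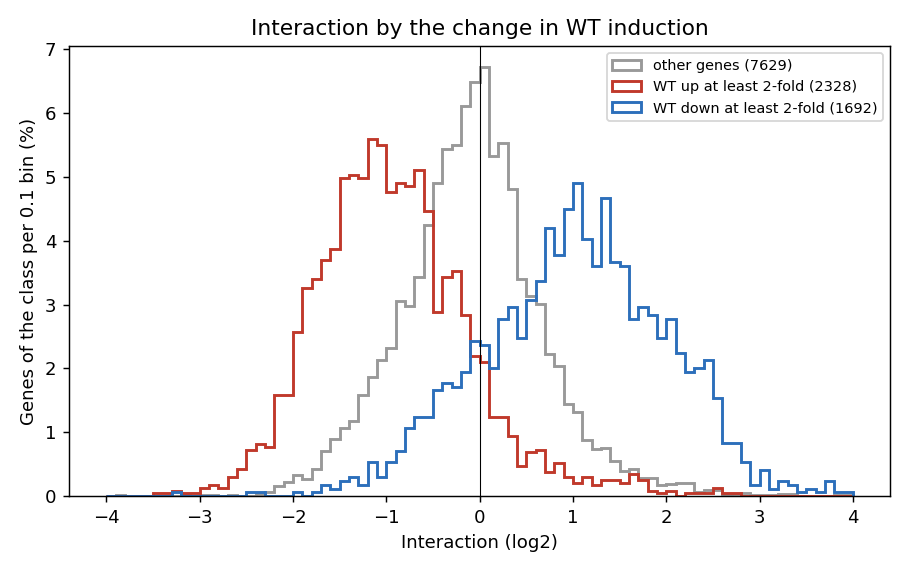
The horizontal axis is the interaction (log2) and the vertical axis the percent of genes of a class in each 0.1 bin, for genes that rose or fell at least 2-fold in WT induction and for all others. The 2328 WT-rising genes centre on -0.995, the 1692 WT-falling genes on 1.04 and the other 7629 on -0.08.

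Genes of the early germ cell programme rose less, or fell, in the Otx2/Blimp1-null line. Of 22 such genes tested, 17 were called lower, 1 higher and 4 did not pass, beside 28.7% lower and 20.1% higher over all genes, and their median interaction was -1.12. Over the alternative settings that median ran from -1.50 to -0.96, and such ranges follow in parentheses where other lists' medians are given. A second median, with bounds, is added where setting undetected genes at the lowest detected signal of each array changes it. A gene undetected in all 4 groups then takes 0.22 from those signals alone, which is no bound on that gene. Counts of the lists that follow are to be read beside the same shares, 28.7% lower and 20.1% higher. Of the 22 genes, 16 rose at induction in Otx2-null cells. Among all genes that rose at least 2-fold in WT induction, 67.7% were called lower, with a median of -0.995. The share of the list called lower, 77.3%, is near that of these WT-rising genes. The mean signal over the 22 genes on each array was 7.70 to 7.79 in Otx2-null and 7.82 to 7.93 in Otx2/Blimp1-null EpiLC. It reached 9.78 to 10.04 in Otx2-null PGCLC and 8.76 to 9.02 in Otx2/Blimp1-null PGCLC. Every PGCLC array stood above every EpiLC array, and at day 6 the Otx2/Blimp1-null arrays were all below the Otx2-null ones.

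Tfap2c, the AP-2 gamma factor named above, gave signals of 7.54, 7.24 and 7.27 in Otx2-null EpiLC and 12.93, 12.44 and 12.86 in Otx2-null PGCLC. In the Otx2/Blimp1-null line it gave 7.42, 7.59 and 7.38 in EpiLC and 10.59, 10.89 and 10.91 in PGCLC. The EpiLC arrays overlapped, while every Otx2/Blimp1-null PGCLC array lay below every Otx2-null one. The rise was 5.39 in the first line and 3.33 in the second (interaction -2.06 ± 0.23, adjusted p = 2.46e-07), a 4.17-fold smaller rise. Kit, the receptor for SCF, which sustains germ cells, went from 5.20, 5.63 and 5.16 to 11.09, 11.35 and 11.03 in Otx2-null cells and from 5.62, 5.64 and 5.49 to 10.01, 10.08 and 10.24 in Otx2/Blimp1-null cells. Kit too was strongly induced in both lines and overlapped between lines in EpiLC only (interaction -1.30 ± 0.26, adjusted p = 0.000261), and a second Kit probe gave -0.67 ± 0.32, which did not pass.

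Rhox9, an X-linked homeobox gene of the reproductive system, gave 6.71, 6.12 and 6.63 in Otx2-null EpiLC, 11.64, 11.12 and 11.35 in Otx2-null PGCLC, 6.52, 6.60 and 6.61 in Otx2/Blimp1-null EpiLC and 7.84, 8.36 and 9.20 in Otx2/Blimp1-null PGCLC. Its rise was 4.88 without Otx2 and 1.89 without both, and the interaction of -2.99 ± 0.40 (adjusted p = 2.48e-06) was among the 15 largest negative ones. Dnd1 encodes an RNA-binding protein that germ cells need to survive. Its signals of 10.12, 9.78 and 10.26 in Otx2-null EpiLC became 10.35, 10.49 and 10.52 in PGCLC, whereas 9.79, 9.89 and 9.66 in Otx2/Blimp1-null EpiLC became 8.95, 8.81 and 8.53. The Dnd1 arrays of the 2 lines thus parted at day 6, with all Otx2/Blimp1-null PGCLC arrays below their own EpiLC arrays (interaction -1.41 ± 0.24, adjusted p = 4.55e-05). Dppa3 (Stella), a maternal and germ cell protein that guards imprints, gave 10.11, 9.42 and 9.62 in Otx2-null PGCLC and 7.68, 8.21 and 9.20 in Otx2/Blimp1-null PGCLC, from 8.36 to 8.81 in the EpiLC of both lines. The Dppa3 signal was uneven among the Otx2/Blimp1-null PGCLC arrays, yet the highest of them stayed below the lowest Otx2-null one (interaction -1.57 ± 0.35, adjusted p = 0.000689).

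Prdm14 and Nanos3 could be compared at day 6 only, because their probes were not detected in EpiLC of at least one line. Prdm14, a regulator of germ cell specification, gave 6.93, 6.91 and 7.19 in Otx2/Blimp1-null against 7.69, 7.41 and 7.62 in Otx2-null PGCLC, a difference of -0.57 ± 0.17 (adjusted p = 0.00723). Nanos3, an RNA-binding protein that protects migrating germ cells, gave 5.74, 6.26 and 5.93 against 7.18, 6.34 and 6.58, a day-6 difference of -0.72 ± 0.20 (adjusted p = 0.00406). Neither gene overlapped between lines at day 6, but the Nanos3 interaction did not pass on the authors' normalized values. Sall4, a zinc finger factor of pluripotent and germ cells, had an interaction of -2.28 ± 0.42 on its brightest probe (adjusted p = 0.000108) and -0.16 ± 0.42 on a second one, so its probes disagree. Stk31, a kinase-like gene of the germ line, was the member called higher (adjusted p = 0.00855). It was undetected in Otx2/Blimp1-null EpiLC, its change there was at least 1.89-fold higher than that of Otx2-null cells, and it did not pass on the authors' normalized values.

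**Figure D3:**
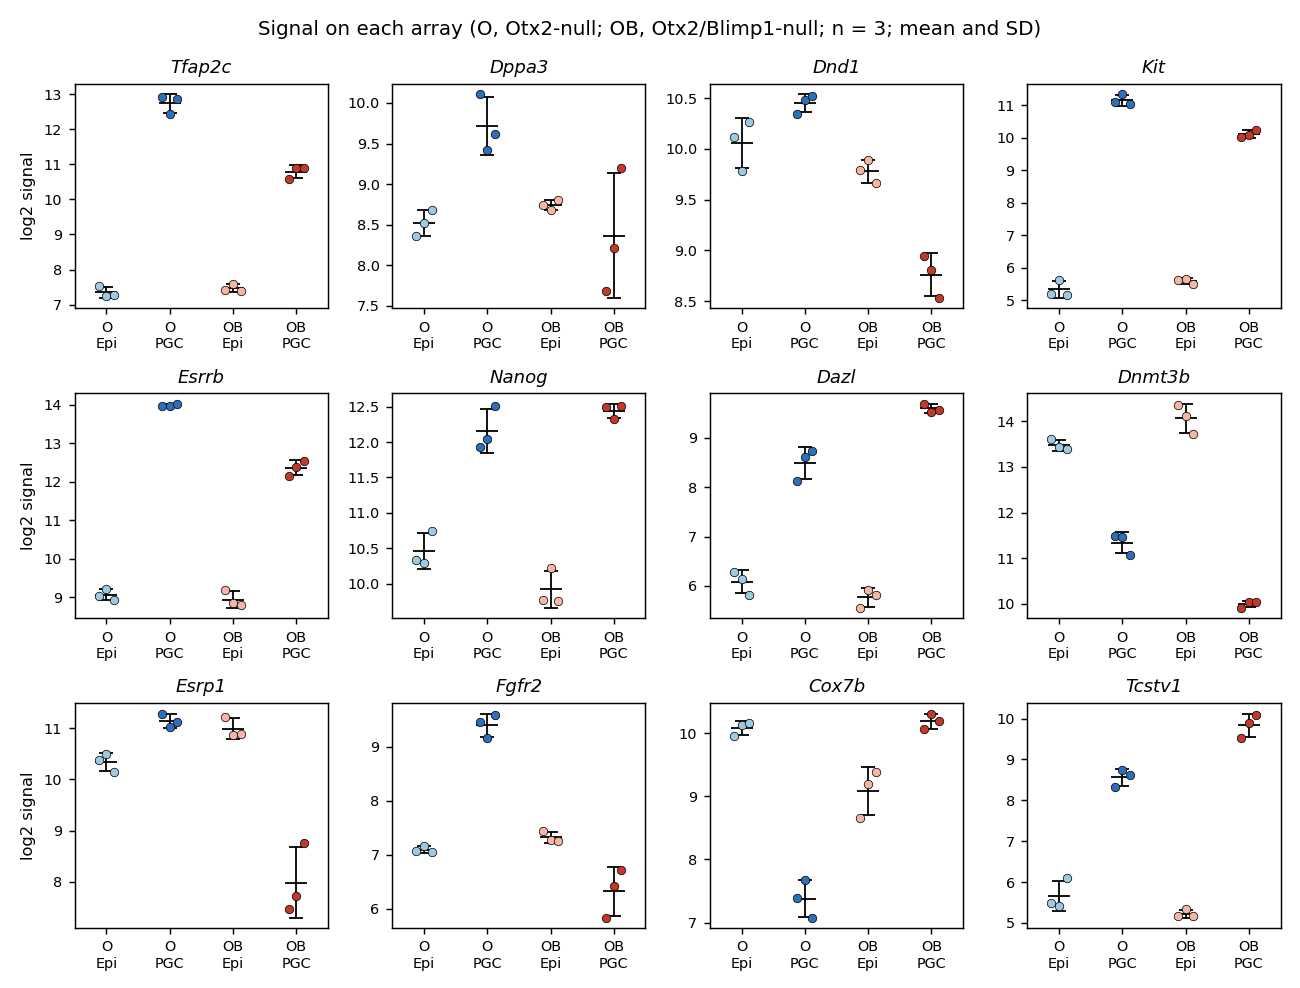
Log2 signal of 12 genes on each array, with every panel on its own vertical axis, for Otx2-null (O) and Otx2/Blimp1-null (OB) EpiLC and PGCLC. Points are the 3 arrays of a group, and bars are the mean and SD. Tfap2c, Kit and Esrrb rise in both lines and less in the second, Dazl and Tcstv1 rise further in the second, and Cox7b moves in opposite directions.

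Genes of later germ cells did not share this direction. Only 10 of 20 listed genes could be tested. Of these, 3 were called higher, none lower and 7 did not pass, beside 20.1% higher and 28.7% lower over all genes. Their median was 0.24 (0.05 to 0.76, and 0.17 with bounds). Dazl, an RNA-binding protein that licenses germ cells for sexual differentiation, gave 6.29, 6.14 and 5.83 in Otx2-null EpiLC and 8.12, 8.62 and 8.74 in Otx2-null PGCLC. It gave 5.56, 5.93 and 5.82, then 9.69, 9.53 and 9.57, in the Otx2/Blimp1-null line. The day-6 arrays did not overlap and the rise was 3.83 without both genes against 2.41 without Otx2 (interaction 1.42 ± 0.29, adjusted p = 0.000308). Stra8, which is needed for meiotic entry, was 1.34 ± 0.27 higher in Otx2/Blimp1-null PGCLC (adjusted p = 0.000256) with EpiLC at the floor. Rnf17, a tudor-domain gene of spermatogenesis, had an interaction of 1.56 ± 0.27 (adjusted p = 4.65e-05), and its second probe gave 0.49 ± 0.30, which did not pass.

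Of 7 genes of the 2-cell embryo tested, 4 were called higher, none lower and 3 did not pass, beside 20.1% higher over all genes. After removal of a trend with gene span described further on, 2 were higher, and on the authors' normalized values 2 were higher and 1 lower. The median was 0.62 (0.06 to 0.95, and 0.71 with bounds). Tcstv1, a 2-cell and telomere-associated gene, gave 5.49, 5.41 and 6.09 in Otx2-null EpiLC, 8.32, 8.74 and 8.63 in Otx2-null PGCLC, 5.18, 5.34 and 5.17 in Otx2/Blimp1-null EpiLC and 9.52, 9.89 and 10.09 in Otx2/Blimp1-null PGCLC. It rose in both lines and without overlap at day 6 (interaction 1.70 ± 0.37, adjusted p = 0.000572). Its close relative Tcstv3 had an interaction of 1.56 ± 0.47 (adjusted p = 0.00832), and probes may not separate such near-identical copies.

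Naive pluripotency genes, which mark the embryonic stem cell state and return in germ cells, were divided. Of 18 tested, 8 were called lower, 3 higher and 7 did not pass, beside 28.7% lower and 20.1% higher over all genes. The median was -0.54 (-0.62 to -0.10, and -0.34 with bounds). It was -0.25 on the authors' normalized values and -0.10 with the mean of all probes of a gene. Esrrb, an orphan nuclear receptor of naive cells, went from 9.04, 9.23 and 8.94 to 13.95, 13.95 and 14.02 in Otx2-null cells and from 9.18, 8.85 and 8.79 to 12.15, 12.38 and 12.54 in Otx2/Blimp1-null cells. The Otx2/Blimp1-null PGCLC arrays were all lower, although the gene rose by 3.41 in that line (interaction -1.49 ± 0.21, adjusted p = 5.88e-06). A second Esrrb probe gave an interaction of 0.05 ± 0.23. Tfcp2l1, a factor downstream of LIF, was undetected in Otx2-null EpiLC and reached 12.86, 12.83 and 12.68 in Otx2-null against 11.14, 11.27 and 11.38 in Otx2/Blimp1-null PGCLC. Its day-6 difference was -1.53 ± 0.15 (adjusted p = 3.96e-08), with no overlap. Klf5 (-1.83 ± 0.25), Klf2 (-1.31 ± 0.21) and Gbx2 (-1.70 ± 0.33), also factors of naive cells, were called lower.

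Nanog and Zfp42 (Rex1), which mark naive cells as well, went the other way. Nanog gave 10.34, 10.29 and 10.75 in Otx2-null EpiLC and 11.93, 12.04 and 12.51 in Otx2-null PGCLC, against 9.78, 10.22 and 9.76, then 12.49, 12.32 and 12.50, in the Otx2/Blimp1-null line. Its day-6 arrays overlapped between lines, whereas its EpiLC arrays were lower in the Otx2/Blimp1-null line, and the interaction was 0.82 ± 0.28 (adjusted p = 0.0169). The second Nanog probe gave 0.54 ± 0.39, which did not pass, and the call of the first was lost without Otx2-null EpiLC replicate 3 (0.68) or without Otx2-null PGCLC replicate 1 (0.70). Zfp42 showed the same pattern, with a day-6 difference of 0.28 ± 0.17 (adjusted p = 0.189) and an interaction of 0.93 ± 0.24 (adjusted p = 0.00261). Klf4 and Tbx3, further factors of naive cells, were at or near the floor in EpiLC and did not pass at day 6, with differences of 0.18 ± 0.19 (adjusted p = 0.456) and 0.01 ± 0.20 (adjusted p = 0.972).

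Of 12 genes of general pluripotency, 5 were called lower, 3 higher and 4 did not pass, beside 28.7% lower and 20.1% higher over all genes. The median was -0.37 (-0.53 to -0.25, and -0.34 with bounds), and 1 gene was higher after removal of the span trend. Trim28, a corepressor that silences retroelements, was called lower (-1.80 ± 0.22, adjusted p = 9.8e-07), as was Utf1, a chromatin protein of pluripotent cells (-1.51 ± 0.26, adjusted p = 6.11e-05). Sox2, a partner of Oct4, was lower on its brightest probe (-1.17 ± 0.30, adjusted p = 0.00253), with day-6 signals of 8.82, 8.49 and 8.48 against 9.93, 9.81 and 10.04. A second Sox2 probe gave 0.56 ± 0.24 (adjusted p = 0.06), and the mean of its probes did not pass. Pou5f1 (Oct4) stayed between 12.44 and 13.20 on all 12 arrays, and its interaction of 0.50 ± 0.20 (adjusted p = 0.0426) passed with a single array left out only where that was Otx2-null EpiLC replicate 3 or Otx2/Blimp1-null EpiLC replicate 1. Tdgf1 (Cripto), a Nodal co-receptor, had the largest positive interaction of the list. Its signals of 8.66, 7.88 and 9.08 in Otx2-null EpiLC became 6.54, 6.98 and 7.39, whereas 8.04, 8.07 and 7.98 in Otx2/Blimp1-null EpiLC became 9.26, 9.13 and 8.64 (interaction 2.55 ± 0.38, adjusted p = 9.51e-06).

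Promoters were searched for the core letters of the binding motifs of the 2 factors that these data bear on, Blimp1 (AGNGAAAG) and AP-2 (GCCNNNGGC, which reads the same on both strands), on both strands of the 300 bases from 250 before to 50 after each gene start. The sequences are RefSeq's, of build GRCm38.p6, and 9410 of the 11649 genes had one. A gene was counted if any of its promoter windows held the letters. The Blimp1 letters were found for 8.98% of genes called higher, 8.78% of those called lower and 9.93% of those not past the test. Over all genes tested the share was 9.4%. The AP-2 letters were found for 23% of genes called higher, 33.2% of those called lower and 27.9% of those not past. Over all genes tested it was 28.4%. Counted per window rather than per gene, 8.63% and 16.6% of all 32851 promoters of the table held them. Of the 15 largest interactions on each side, AP-2 letters were found for 2 of 10 higher and 1 of 9 lower genes with a promoter. Median promoter GC content moved the same way as the AP-2 shares of called genes, at 58.0% for higher and 62.7% for lower. Its part in the AP-2 shares was not tested. A match is a description of letters, not a binding site. The promoters of Kit (chr5:75574737-75575036, plus strand) and Tfcp2l1 (chr1:118627695-118627994, plus strand) show the AP-2 letters in 2 genes induced less in the Otx2/Blimp1-null line. That of Nanog (chr6:122707239-122707538, plus strand) shows the Blimp1 letters, read on the minus strand, in a gene induced more. They are examples only: a second Nanog window holds the letters of both factors, and Zfp42, Pou5f1 and Ndufb4, called higher, have the AP-2 letters too. Capitals mark the match.
Kit: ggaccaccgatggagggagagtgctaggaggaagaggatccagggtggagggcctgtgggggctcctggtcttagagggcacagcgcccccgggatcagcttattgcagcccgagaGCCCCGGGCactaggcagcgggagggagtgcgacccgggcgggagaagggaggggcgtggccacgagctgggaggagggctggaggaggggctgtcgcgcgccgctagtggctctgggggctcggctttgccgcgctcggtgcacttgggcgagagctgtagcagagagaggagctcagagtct
Tfcp2l1: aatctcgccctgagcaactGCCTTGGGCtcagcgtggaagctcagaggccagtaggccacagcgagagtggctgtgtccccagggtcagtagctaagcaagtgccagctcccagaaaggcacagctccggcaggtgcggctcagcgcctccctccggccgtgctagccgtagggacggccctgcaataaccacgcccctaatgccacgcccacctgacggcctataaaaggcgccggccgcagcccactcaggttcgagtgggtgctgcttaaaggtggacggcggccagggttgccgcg
Nanog: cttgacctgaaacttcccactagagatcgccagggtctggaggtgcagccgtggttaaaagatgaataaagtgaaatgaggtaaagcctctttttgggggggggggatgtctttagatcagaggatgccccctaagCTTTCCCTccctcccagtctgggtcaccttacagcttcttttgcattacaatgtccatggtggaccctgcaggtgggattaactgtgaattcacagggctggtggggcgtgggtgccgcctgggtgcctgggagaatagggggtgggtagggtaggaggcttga

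Genes of the formative and primed epiblast, the state that EpiLC stand for, had more negative than positive interactions. Of 18 tested, 11 were called lower, 1 higher and 6 did not pass, beside 28.7% lower and 20.1% higher over all genes. The median was -0.95 (-1.15 to -0.58). Within the lines, 8 of the 18 fell on induction of Otx2-null cells and 11 on that of Otx2/Blimp1-null cells, a difference in count that was not tested. The member called higher was Otx2 itself. Pou3f1 (Oct6), an epiblast and neural factor, gave 9.57, 9.62 and 9.44 in Otx2-null EpiLC and 10.72, 10.26 and 10.31 in Otx2/Blimp1-null EpiLC, then 5.66, 6.53 and 5.39 and 5.00, 5.23 and 5.36 in PGCLC. It began higher and ended lower in the Otx2/Blimp1-null line, without overlap at either stage (interaction -1.55 ± 0.33, adjusted p = 0.000524). Fgf5, a growth factor of the epiblast, likewise began higher, at 8.29, 8.00 and 8.06 against 7.39, 6.64 and 6.64. It was undetected in Otx2/Blimp1-null PGCLC and detected on only 1 of 3 Otx2-null PGCLC arrays. Both falls thus ended at or near the floor, and the difference between them has no firm size. The day-6 difference between lines, -0.37 ± 0.18, did not pass (adjusted p = 0.0978).

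Genes of DNA methylation and of its removal had more lower than higher calls. Of 9 tested, 5 were called lower, none higher and 4 did not pass, beside 28.7% lower and 20.1% higher over all genes. The median was -1.65 (-1.75 to -0.42, the latter without a detection filter). Those that did not pass were Tdg (0.10), Mbd3 (-0.42), Apobec1 (-0.12) and Gadd45a (0.41), named after their values were seen. Dnmt3b, a de novo methyltransferase, gave 13.62, 13.43 and 13.39 in Otx2-null EpiLC and 14.36, 14.11 and 13.73 in Otx2/Blimp1-null EpiLC, then 11.48, 11.46 and 11.07 against 9.91, 10.03 and 10.04 in PGCLC. It fell in both lines, and by 4.07 rather than 2.14 in the Otx2/Blimp1-null line (interaction -1.93 ± 0.24, adjusted p = 1.34e-06). Dnmt1, the maintenance methyltransferase, rose from 8.80, 8.26 and 8.95 to 11.11, 10.85 and 10.75 in Otx2-null cells and from 8.93, 8.67 and 8.50 to only 9.05, 9.34 and 9.27 in Otx2/Blimp1-null cells. The Dnmt1 EpiLC arrays overlapped between lines and the PGCLC arrays did not (interaction -1.71 ± 0.27, adjusted p = 1.88e-05). Uhrf1, which brings Dnmt1 to replicating DNA, and Dnmt3l, a cofactor of de novo methylation, had interactions of -1.69 ± 0.27 and -1.65 ± 0.29. Tet1, which oxidises methylcytosine, is the remaining gene of the 5 and is named after its value of -1.79 was seen.

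Among 15 other chromatin modifiers, 9 were called lower, 3 higher and 3 did not pass, beside 28.7% lower and 20.1% higher over all genes. The median was -0.66 (-0.76 to -0.39). Only 4 were lower on the authors' normalized values and 5 after removal of the trend with gene span. Suz12, a core subunit of Polycomb repressive complex 2, rose by 2.75 in the first line and 0.94 in the second (interaction -1.80 ± 0.21, adjusted p = 4.03e-07), though its second probe gave 0.30 ± 0.26. Eed, another subunit of that complex, was called higher (0.91 ± 0.26, adjusted p = 0.00538), and its second probe gave -0.12 ± 0.19. Kdm3a, a demethylase of histone H3 lysine 9, was called higher as well (0.98 ± 0.24), as were 2 of its other probes (0.75 ± 0.25 and 1.02 ± 0.30), while another gave 0.14 ± 0.18. Of 8 genes listed here as repressed by Blimp1, 5 were called lower, none higher and 3 did not pass, with a median of -1.01 (-1.40 to -0.13, and -0.78 with bounds). They included Dnmt3b, Uhrf1 and Bcl6, a repressor of B cells, which was undetected in EpiLC of both lines and differed by -0.86 ± 0.17 at day 6 (adjusted p = 0.00021). Dnmt3b and Uhrf1 are counted in the DNA methylation list too, and Ehmt1, also called lower, among the chromatin modifiers.

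Genes of epithelial junctions held some of the largest negative interactions. Of 16 tested, 9 were called lower, none higher and 7 did not pass, beside 28.7% lower and 20.1% higher over all genes. The median was -0.83 (-0.91 to -0.46). Over this list the median change at induction was 0.05 in the first line and -1.04 in the second. Esrp1, an RNA-binding protein that sets epithelial splicing, had the largest negative interaction among named genes. Its signals were 10.37, 10.50 and 10.14 in Otx2-null EpiLC, 11.29, 11.02 and 11.13 in Otx2-null PGCLC, 11.23, 10.87 and 10.89 in Otx2/Blimp1-null EpiLC and 7.47, 7.73 and 8.76 in Otx2/Blimp1-null PGCLC. So Esrp1 rose in the first line and fell by 3.01 in the second (interaction -3.82 ± 0.31, adjusted p = 1.43e-08). Cldn6, a claudin of tight junctions, gave 10.62, 10.42 and 10.65 in Otx2-null PGCLC and 8.65, 8.61 and 9.23 in Otx2/Blimp1-null PGCLC, with no overlap (interaction -2.67 ± 0.26, adjusted p = 6.68e-08). Rab25, a small GTPase of epithelial trafficking (-1.96 ± 0.27), and Cldn3 (-1.82 ± 0.31) were called lower too. The keratins Krt8, Krt18 and Krt19 did not pass, at -0.30, -0.01 and -0.29, and are named after their values were seen.

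Receptors, adhesion proteins and signal modulators were also among the largest negative interactions. Fgfr2, an FGF receptor whose splicing Esrp1 is known to set, gave 7.07, 7.17 and 7.05 in Otx2-null EpiLC and 9.45, 9.15 and 9.58 in PGCLC, against 7.43, 7.28 and 7.25, then 5.84, 6.41 and 6.73, in the Otx2/Blimp1-null line. It moved in opposite directions, a rise of 2.30 and a fall of 0.99 (interaction -3.29 ± 0.28, adjusted p = 1.93e-08), while a second Fgfr2 probe gave -0.46 ± 0.21, which did not pass. Cdh3, P-cadherin, rose by 2.33 and fell by 0.51 (interaction -2.85 ± 0.26, adjusted p = 3.24e-08), with 8.16, 8.25 and 8.09 against 5.55, 5.75 and 5.67 at day 6. Dag1, the laminin receptor dystroglycan, likewise rose by 2.10 in Otx2-null and fell by 0.72 in Otx2/Blimp1-null cells (interaction -2.82 ± 0.32). Gna13, a G protein subunit (-3.38 ± 0.31), and Mbp, myelin basic protein (-3.16 ± 0.27), had other probes that did not pass. That of Gna13 had the opposite sign, at 0.60 ± 0.26, and those of Mbp gave -0.31 ± 0.21 and -0.02 ± 0.26, so the probes of each gene disagree. The set was completed by Castor1, an arginine sensor (-3.19 ± 0.29), Zc3h13, of the RNA methylation complex (-3.03 ± 0.53), Slc40a1, the iron exporter ferroportin (-2.89 ± 0.30), Hmgn5, a nucleosome-binding protein (-2.95 ± 0.39), and Rps6kl1, Igdcc3 and Aif1l (-2.96, -2.84 and -2.80).

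Feedback genes of FGF and ERK signalling followed in part. Of 13 tested, 6 were called lower, 1 higher and 6 did not pass, beside 28.7% lower and 20.1% higher over all genes. The median was -0.62 (-0.67 to -0.25). On the authors' normalized values, which gave the -0.25, 4 were lower and none higher. Dusp4, a phosphatase that dampens ERK, gave 7.92, 7.91 and 7.89 in Otx2-null EpiLC and 7.98, 7.44 and 7.71 in PGCLC, while 9.04, 8.85 and 8.75 in Otx2/Blimp1-null EpiLC became 4.89, 5.53 and 5.80. Its change in the first line, -0.20 ± 0.18, did not pass, and it fell by 3.48 in the second (interaction -3.28 ± 0.26, adjusted p = 1.18e-08), and of its other probes 2 were called lower (-3.21 ± 0.30 and -1.51 ± 0.23) and 1 did not pass (-0.51 ± 0.25). Etv5 (-1.42 ± 0.31) and Spred1 (-1.20 ± 0.26), a target and an inhibitor of the pathway, were called lower, and Phlda1, undetected in Otx2/Blimp1-null EpiLC, was called higher, with a rise at least 1.36-fold larger, but did not pass on the authors' normalized values.

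Several of the 15 largest positive interactions were of genes that fell in the first line and rose in the second. Rpl39l, a paralog of a ribosomal protein, gave 9.09, 9.08 and 9.26 in Otx2-null EpiLC and 6.63, 6.62 and 6.38 in Otx2-null PGCLC, against 8.00, 8.65 and 8.70, then 9.87, 9.83 and 9.78, in the Otx2/Blimp1-null line. It fell by 2.60 in the first line and rose by 1.37 in the second, with no overlap at either stage (interaction 3.98 ± 0.26, adjusted p = 3.18e-09), a 15.7-fold difference between the 2 changes. Cabp4, a calcium-binding protein known from photoreceptors (3.94 ± 0.28), Ttc29, of sperm axonemes (3.89 ± 0.33), Itgae, the integrin alpha E chain (3.79 ± 0.36), and Rpl22l1, a paralog of another ribosomal protein (3.72 ± 0.34), also moved in opposite directions. Hebp1, a haem-binding protein, gave 8.99, 9.37 and 9.12 in Otx2-null PGCLC and 11.28, 11.50 and 11.49 in Otx2/Blimp1-null PGCLC, and its interaction was 3.53 ± 0.26 (adjusted p = 4.76e-09). Serpinb6c, of a protease inhibitor family (3.38 ± 0.38), S100a10, a partner of annexin (3.37 ± 0.38), and Gngt2, a G protein gamma subunit (3.42 ± 0.26), completed the named positive interactions together with Gm2381, Gm14325 and BC028528, at 3.78, 3.70 and 3.67.

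Subunits of the respiratory chain were higher as a list. Of 17 tested, 12 were called higher, 2 lower and 3 did not pass, with a median of 0.73 (0.65 to 0.84), beside 20.1% higher over all genes. Of the 17, 10 fell at induction in Otx2-null cells. Among all genes that fell at least 2-fold in WT induction, 67.1% were called higher, near the 70.6% of this list. Cox7b, of cytochrome c oxidase, gave 9.96, 10.14 and 10.16 in Otx2-null EpiLC and 7.39, 7.67 and 7.08 in Otx2-null PGCLC, but 8.66, 9.20 and 9.39, then 10.07, 10.31 and 10.19, in the Otx2/Blimp1-null line (interaction 3.81 ± 0.41, adjusted p = 2e-07). Its Otx2-null PGCLC arrays were the low ones, below all 9 others. Cox7a2 (3.26 ± 0.37) and Cox6c (1.65 ± 0.26) of the same complex, and Ndufb3 of complex I (1.89 ± 0.21), were called higher. Ndufb4 of complex I (3.54 ± 0.36) and Atp5e of ATP synthase (3.33 ± 0.38), named among the largest interactions, were not on the list. The 2 members called lower were Cox5a (-0.65 ± 0.19) and Uqcrc1 (-0.63 ± 0.20). Cytosolic ribosomal proteins gave 1 higher (Rplp0, 1.16 ± 0.24), 1 lower (Rpl4, -0.67 ± 0.22, or -0.54 and not past without Otx2-null EpiLC replicate 1) and 8 not past of 10. Their median was -0.13, close to that of all genes. Second probes of Rplp0 and Rpl4 gave 0.64 ± 0.31 and 0.15 ± 0.32, and neither passed.

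Cell cycle genes moved both ways. Over all genes, 20.1% were called higher and 28.7% lower. Of 18 DNA replication genes, 6 were called higher, 7 lower and 5 did not pass. Their median was -0.32 (-0.40 to -0.15) and their mean 0.00. Pcna, the sliding clamp, fell from 10.10, 10.14 and 10.53 to 8.02, 8.17 and 8.41 in Otx2-null cells, and stayed between 9.43 and 9.95 on the 6 Otx2/Blimp1-null arrays (interaction 2.01 ± 0.23, adjusted p = 3.92e-07). Rfc4 and Rfc3, of the clamp loader, and Gins2, of the replicative helicase, showed the same pattern, at 2.02 ± 0.31, 1.90 ± 0.25 and 1.84 ± 0.27. Mcm4, a helicase subunit, and Cdt1, which loads it, rose by 1.51 and 1.57 in Otx2-null cells and had changes of -0.28 and -0.23 in Otx2/Blimp1-null cells, which gave interactions of -1.79 ± 0.20 and -1.81 ± 0.26. Of 11 mitotic genes, 5 were called lower, 1 higher and 5 did not pass, with a median of -0.49 (-0.59 to -0.16). Plk1, a mitotic kinase, had -2.07 ± 0.29 (adjusted p = 4.4e-06). Cdk1 was the member called higher (0.70 ± 0.24), a call lost without Otx2-null PGCLC replicate 2 (0.58) or Otx2/Blimp1-null EpiLC replicate 1 (0.63). A second Cdk1 probe gave 0.26 ± 0.22, which did not pass.

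Metabolic, stress and imprinted lists are to be read beside the 28.7% of all genes called lower and 20.1% called higher. Of 13 hypoxia and glycolysis genes, 6 were called lower, 1 higher and 6 did not pass, with a median of -0.36 (-0.80 to -0.18). The glucose transporters Slc2a3 and Slc2a1 had -1.70 ± 0.25 and -1.48 ± 0.29, and the glycolytic enzyme Pkm had -1.62 ± 0.23. Pgk1 was the member called higher (0.82 ± 0.28, or 0.58 and not past without Otx2-null PGCLC replicate 1). Of the other Pgk1 probes, 1 was called higher (0.93 ± 0.31) and 1 did not pass (0.71 ± 0.33). Of 15 genes of the amino acid response driven by ATF4, 7 were called lower, 2 higher and 6 did not pass, with a median of -0.67 (-0.84 to -0.50, and -0.58 with bounds). Sesn2, an mTORC1 inhibitor, and Slc7a3, an arginine transporter, were lower, at -1.94 ± 0.34 and -1.42 ± 0.23, while Ddit3 (CHOP) was higher, at 1.92 ± 0.23. A second Slc7a3 probe gave 0.06 ± 0.29, which did not pass. Of 12 p53 targets, 5 were called lower, 1 higher (Ccng1, 1.34 ± 0.33) and 6 did not pass, with a median of -0.28 (-0.45 to -0.17). Cdkn1a, the p21 inhibitor of the cell cycle, had -1.19 ± 0.24. Ccng1 and Cdkn1a each had 1 other probe called alike (1.33 ± 0.29 and -0.70 ± 0.27). Each also had 1 that did not pass (0.32 ± 0.33 and -0.46 ± 0.25). Of 12 imprinted genes, 6 were called lower, 1 higher (Phlda2, 0.81 ± 0.29, not past once the span trend was removed) and 5 did not pass. The median was -0.74 (-0.96 to -0.35). Peg3, a zinc finger gene, was the lowest, at -1.90 ± 0.33, but its second probe gave -0.40 ± 0.24 and did not pass.

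Of 12 genes of cholesterol synthesis, 4 were called higher, 2 lower and 6 did not pass, beside 20.1% higher and 28.7% lower over all genes. The median was 0.37 (0.23 to 0.49). Mvk, mevalonate kinase, fell by 1.91 in Otx2-null cells and had a change of 0.34 in Otx2/Blimp1-null cells (interaction 2.25 ± 0.22, adjusted p = 8.12e-08), while Sqle, squalene epoxidase, had -1.03 ± 0.22. Of 13 interferon response genes, 3 were called higher, 2 lower and 8 did not pass, with a median of 0.33 (0.01 to 0.39, and 0.15 with bounds), and 1 was higher after removal of the span trend. Psmb9, an immunoproteasome subunit, had 1.18 ± 0.23, and Irf1, an interferon regulatory factor, had -1.10 ± 0.25. The 3 other Irf1 probes gave -0.22, 0.02 and -0.29, and none passed.

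Readouts of the cytokines in the medium were mixed. Over all genes, 20.1% were called higher and 28.7% lower. Of 8 BMP and SMAD targets, 1 was called higher, 1 lower and 6 did not pass. The median was 0.03 (-0.10 to 0.59, and 0.20 with bounds). Id1, a direct BMP target, gave 7.84, 7.82 and 7.72 in Otx2-null PGCLC and 9.08, 9.12 and 9.60 in Otx2/Blimp1-null PGCLC. It was therefore higher at day 6 in the second line (1.48 ± 0.24, adjusted p = 2.8e-05), but was higher in its EpiLC too, and the interaction of 0.68 ± 0.35 (adjusted p = 0.111) did not pass. On the authors' normalized values the Id1 interaction was 2.16 and passed (adjusted p = 5.06e-05). Its probe was detected on only 1 of 3 Otx2-null EpiLC arrays, so that starting level is near the floor. Gata2, a factor of blood and trophoblast that also responds to BMP, gave 7.69, 8.00 and 7.70 in Otx2-null against 5.14, 5.80 and 5.52 in Otx2/Blimp1-null PGCLC, a day-6 difference of -2.31 ± 0.17 (adjusted p = 1.08e-09). Of 14 LIF and STAT3 targets, 4 were called lower, 1 higher and 9 did not pass (median -0.23, range -0.41 to -0.02), and of 7 Wnt targets 3 were called lower, 1 higher and 3 did not pass (median -0.68, range -0.84 to -0.02, and -0.49 with bounds). Ccnd1, cyclin D1, had -1.41 ± 0.27, and of its other probes 1 was called lower (-1.67 ± 0.26) and 1 did not pass (-0.50 ± 0.30).

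**Figure D4:**
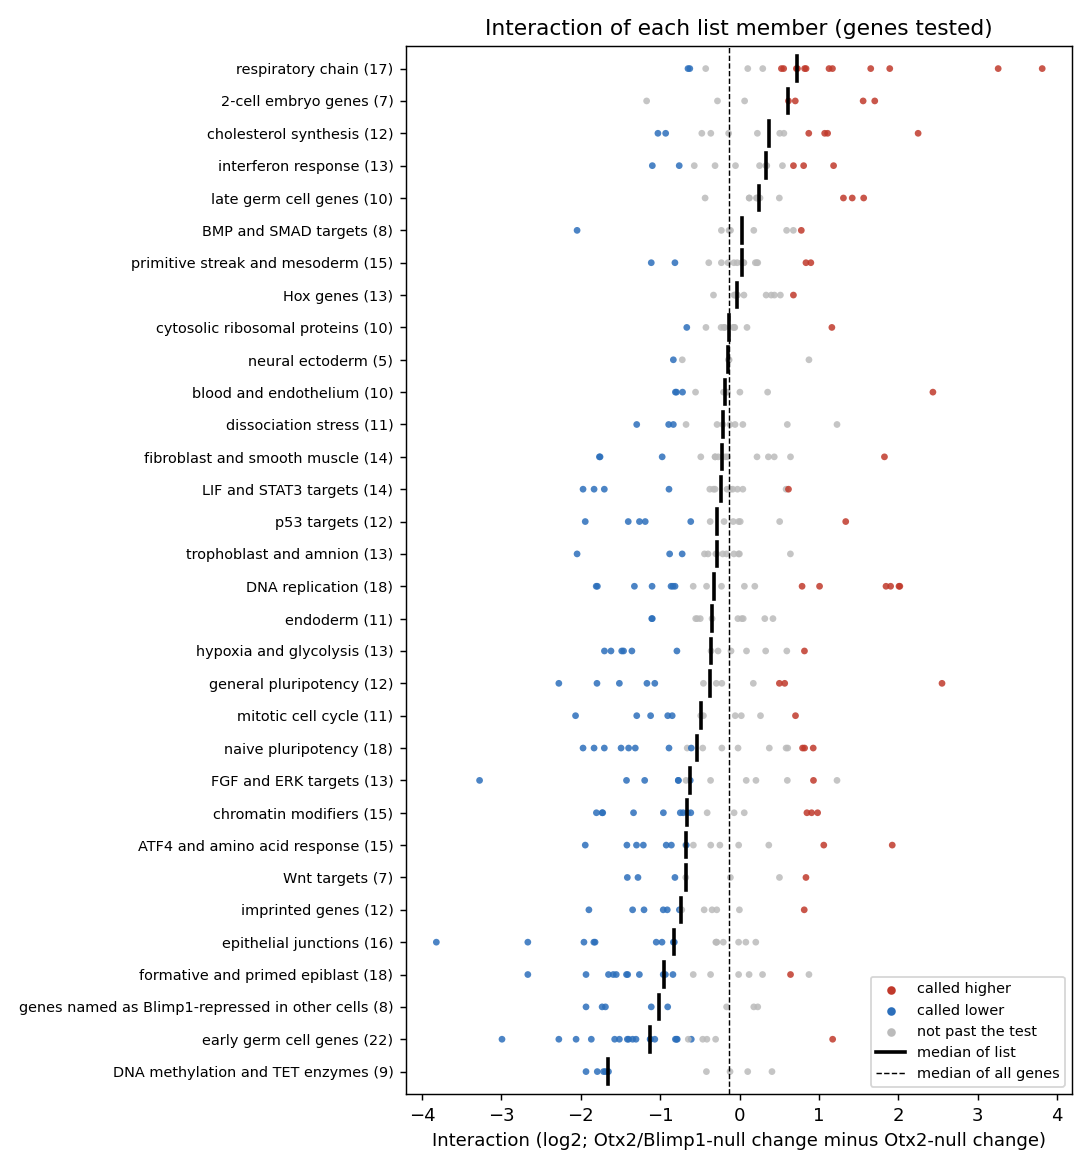
Each row is a gene list with the number of genes tested, each point a gene placed by its interaction (log2), and the thick bar the median of the list. The dashed line is the median of all genes, -0.13, and the lists run from DNA methylation and TET enzymes at -1.65 to the respiratory chain at 0.73.

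Markers of other cell types that a sort from aggregates could hold mostly did not pass the test, and their levels differed by list. Over all genes, 20.1% were called higher and 28.7% lower. Of 15 genes of primitive streak and mesoderm, 2 were called higher, 2 lower and 11 did not pass, with a median of 0.03. The neural list gave 1 lower and 4 not past of 5, endoderm 2 lower and 9 not past of 11, and trophoblast and amnion 3 lower and 10 not past of 13. Blood and endothelium gave 1 higher, 3 lower and 6 not past of 10, and fibroblast and smooth muscle 1 higher, 3 lower and 10 not past of 14. Of 13 Hox genes 1 was called higher and 12 did not pass, and of 11 genes of dissociation stress 3 were called lower and 8 did not pass. These 8 lists had medians between -0.35 and 0.03, and each of those medians changed sign under at least 1 alternative processing. With bounds the medians lay between -0.14 and 0.22. The 0.22, of the blood, fibroblast and Hox lists, is the value that a gene undetected in all 4 groups takes from the array floors alone. The mean level of the mesoderm list ran from 4.98 to 5.18 over the 12 arrays, with 4 to 8 of its 15 genes undetected in a group, and that of trophoblast from 5.15 to 5.71. The fibroblast and smooth muscle list was brighter, at 6.76 to 7.25, with 3 to 5 of its 14 genes undetected in a group. Endoderm genes stood at 5.58 to 5.73 in EpiLC and 6.21 to 6.68 in PGCLC, where 2 of 11 were undetected. Single members moved more. Etv2, a factor of blood vessel precursors, fell by 2.91 in Otx2-null cells and had a change of -0.48 in Otx2/Blimp1-null cells (interaction 2.44 ± 0.31, adjusted p = 1.22e-06), and Fn1, fibronectin, rose by 4.00 and by 2.24 (interaction -1.76 ± 0.34). What part these cell types have in the other results was not tested.

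The interaction also moved with the length of the gene in the genome. Genes were split into 10 equal classes by genomic span. In the shortest class (median 2202 bases) 35.6% were called higher and 12.3% lower, while in class 9 (median 83276 bases) 10.2% were higher and 38.7% lower. The longest class had 10.6% and 32.2%. Over 11640 genes with a span, Spearman's rho between span and interaction was -0.22, a description across genes of the same arrays. Within Otx2-null induction the median change was -0.31 in the shortest class and 0.39 in class 9, and within Otx2/Blimp1-null induction it was -0.05 and 0.05. When the trend with span was removed, 5449 genes passed the test, 2704 higher and 2745 lower. The WT-rising genes then had a median of -0.77 and the WT-falling genes 1.10, and the respiratory chain and early germ cell lists kept their signs. On single arrays the median signal of the shortest class, relative to each gene's mean over arrays, was 0.12 to 0.20 in Otx2-null EpiLC and -0.17 in Otx2-null PGCLC, against 0.09 to 0.18 and 0.03 to 0.10 in the Otx2/Blimp1-null line. The same median on WT arrays was 0.06 to 0.12 in EpiLC and -0.20 to -0.11 in PGCLC. In the 2 lines compared, the number of detected probes, given above, was also farthest apart between the 2 Otx2-null groups. On WT arrays it was 14808 to 15861 in EpiLC and 17714 to 19556 in PGCLC, so the Otx2/Blimp1-null PGCLC counts were the lowest at day 6. The part of detection in the result was not tested.

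**Figure D5:**
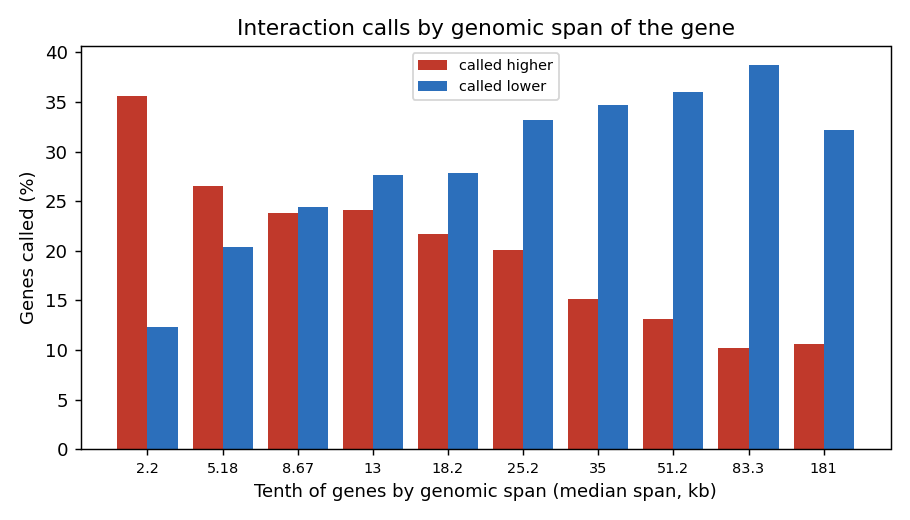
Genes are split into 10 classes by genomic span (horizontal axis, median span in kb), and bars give the percent of genes in each class called higher or lower in the interaction. The share called higher falls from 35.6% in the shortest class to 10.6% in the longest, and the share called lower rises from 12.3% to 32.2%.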

How the data were processed

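The deposited intensities are not raw, although per the file headers they are called non-normalized. Values run from -19.6 to 30894.6, and the negative ones mean that background had been subtracted. The arrays also appear to have been equalized, as the array medians of these intensities ran only from 5.24 to 5.34. A deposited detection p-value per probe and array, per the file headers, accompanies them. The authors' normalized table holds log2 values and was used as an alternative. The submitters' processing notes name limma, with no version, and no genome build. Per the labels' protocols, 100 ng of total RNA was labelled by oligo-dT priming and in vitro transcription.

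In the intensity table the probes of 1 array (Otx2-null PGCLC replicate 2) were in a wrong order (rank correlation with its normalized column 0.00547, against 1 for the others). Its values were put back by the ranks of the normalized column, and detection p-values were taken from the normalized table, from which 76 differed on that array. Intensities were corrected, offset by 16, quantile normalized and put on the log2 scale by limma's neqc (limma 3.58.1, R 4.3.3). A probe was kept if its detection p was under 0.05 on 3 or more of the 21 arrays (21647 probes, 18156 of them named). In the platform annotation 34885 probes have 1 gene, 18 have several and 10378 have no gene. The brightest probe stood for a gene, which left 11649 genes.

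All 7 groups were fitted together in limma with group as the only factor, and the interaction, both inductions and the line differences were contrasts of that fit, two-sided, at an adjusted p of 0.05. Where a gene was undetected on all arrays of a group (3494 genes, 30% of those tested, 879 of them with a called interaction), the lowest detected signal of each array replaced lower values, and a fold is given only as a bound. On simulated data of 11649 genes, the interaction recovered 53 of 100 genes with a true log2 difference of 1 and 98 of 100 with 2, with 3 false calls. In that simulation all other genes had no interaction and the noise was Gaussian. In the data 48.8% of genes were called, so these rates need not carry over.

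Genes were named by rule: the 15 largest interactions on each side and the 10 on each side with opposite inductions, among genes detected in each of the 4 groups and called on the authors' log2 values too; a panel of 26 genes; and of each list up to 4 members with the smallest p and those called against its median. The 32 lists came from general knowledge and hold 503 genes, of which 359 were tested and 179 called (57 higher, 122 lower). The members, the lists and the rule were chosen with earlier results of these data known. Lists are described by counts, with no set test. Promoters came from RefSeq. Other software was Python 3.11.15 with numpy 2.4.6, matplotlib 3.10.9 and pandas 2.3.3, and the R package data.table (release 1.17.8).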

Additional observations from a re-analysis of the deposited data

Results flagged for a closer look

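The change at induction differed between the 2 lines, by the test of the difference itself, for 5686 genes. Among genes that also met the naming rule's conditions on detection and on the authors' normalized values, 269 with a higher and 355 with a lower interaction passed the test in opposite directions in the 2 lines.

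The 10 such genes with the largest positive interaction fell in Otx2-null and rose in Otx2/Blimp1-null cells. Their interactions were 3.98 for Rpl39l, 3.94 for Cabp4, 3.89 for Ttc29, 3.81 for Cox7b, 3.79 for Itgae, 3.78 for Gm2381, 3.72 for Rpl22l1, 3.70 for Gm14325, 3.67 for BC028528 and 3.54 for Ndufb4. The 10 with the largest negative interaction rose in Otx2-null and fell in Otx2/Blimp1-null cells. They were Esrp1 at -3.82, Fgfr2 at -3.29, Rps6kl1 at -2.96, Cdh3 at -2.85, Dag1 at -2.82, Aif1l at -2.80, Gstm1 at -2.75, Pnkd at -2.70, Iffo2 at -2.69 and Espn at -2.66. Other probes of Pnkd and Espn were called the opposite way, at 1.10 ± 0.32 and 0.80 ± 0.27, and those of Fgfr2 and Gstm1 did not pass. Gm2381, Gm14325 and BC028528 are named as the array's annotation gives them, and probes for near-identical copies may not tell them apart.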

How the results depend on the processing

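The number of genes with an interaction was 4503 on the authors' normalized table, 5670 without a background model, 5870 without the quantile step, 5488 of 19057 genes without a detection filter, 5526 of 8918 with a stricter one, 5443 on the 12 arrays alone, 5539 with the mean of probes and 5625 with array weights. Removing the trend with gene span, an alternative chosen after seeing the data, gave 5449 and a share of higher calls of 49.6%, against 41.2%. Leaving out single arrays gave 5136 to 5701. The median of all genes was -0.13, and -0.25 under the strict filter. No result reversed its sign after passing the test. The medians of WT-rising and WT-falling genes, with those classes redrawn, were -1.44 and 1.36 on the authors' normalized table. EpiLC differences between lines numbered 1074 with array weights and 603 to 1853 over single arrays left out. The causes were not tested. Of 175 named genes 156 were called, 118 of them under every setting and 131 whichever single array was left out. Of 78 named genes with a second probe, 116 second probes gave 56 like calls and 2 opposite ones. A replicate block gave 5723 calls. The labels do not say whether replicate numbers pair the samples. Deviations of 18 same-number pairs correlated between -0.13 and 0.20, with 3 above 0.1, and those of other pairs between -0.18 and 0.22. Between Otx2-null EpiLC and PGCLC, same-number pairs correlated at 0.06, 0.09 and 0.19, all above the different-number pairs, at -0.13 to 0.05. In the Otx2/Blimp1-null line the 2 kinds overlapped, at -0.025 to 0.0325 and -0.10 to 0.08. Whether the numbers pair samples was not settled. Signal over background limits genes undetected in a group, which enter list counts but whose interactions have no measured size.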
